A study of Mus musculus with 18 samples.

Results

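The mitochondrial ribosomal protein genes were followed in sorted mouse regulatory T cells (Treg, the CD4 T cells that restrain immune responses). They were chosen by symbol alone, as genes named Mrpl or Mrps with a number and at most 1 further letter. This gave 76 of the 23420 genes in the expression table, and all 76 passed the filter on low counts, which left 10630 genes tested. The cells came from 3 genotypes, written +/+, fl/+ and fl/fl for a loxP-flanked allele, and all 3 carry FCre, whose driver the labels do not spell out, so the +/+ controls carry the recombinase too. Each genotype was sorted as resting and as effector Treg, with 3 libraries in each of the 6 groups and 18 libraries in all. Neither the age and sex of the mice nor the gates of the sort are given in the sources used here. The labels number the libraries of each group by batch, 1 to 3, but do not say that they are separate mice, so p-values measure the spread between these samples.

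The mitochondrial ribosome is a separate ribosome inside the organelle that translates the few messenger RNAs made from mitochondrial DNA, all of which encode subunits of the respiratory chain and ATP synthase. Its ribosomal RNAs are encoded by mitochondrial DNA, whereas its proteins are encoded in the nucleus, made in the cytosol and imported. Many of these proteins have bacterial counterparts and others were added during the evolution of mitochondria. T cells enlarge their mitochondria and their translation capacity when they leave quiescence.

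The libraries held 1658073 to 5756903 expected counts, of which the mitochondrial ribosomal protein genes took 5257 to 17167 per library. The T cell and Treg genes Cd3e, Cd4 and Foxp3 were present in every library, with Foxp3 at 211 to 478 CPM (counts scaled to library size). Mean Icos was 67.7 CPM in resting and 359 CPM in effector libraries, in the direction of the state labels. Summed over 5 genes each, B cell markers were at 9.36 to 74.4 CPM and myeloid markers at 0.33 to 8.48 CPM. Pax5 was at 0 in 13 libraries and Csf1r in 12, but Cd79a was at 0 in only 1. Cd79b (5.01 to 31.9 CPM) and Itgam (0.165 to 3.62 CPM) were above 0 in every library. The CD8 T cell markers Cd8a and Cd8b1 summed to 20.4 to 29.2 CPM in resting and 11.1 to 18.8 CPM in effector libraries, nearly all of it Cd8b1, and their part in the state comparisons was not tested. In bulk samples such as these, fewer cells of a type and less RNA per cell cannot be told apart.

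Levels can be compared between genes only per transcript length, as FPKM (fragments per kilobase of transcript, scaled to library size). On that scale the 76 genes spanned a 23.8-fold range, from 7.57 FPKM for Mrpl17 to 180.1 FPKM for Mrpl52, with a median of 37 FPKM. The highest 5 were Mrpl52, Mrpl30 (138 FPKM), Mrps21 (135), Mrpl23 (117) and Mrpl33 (112). The lowest 5 were Mrpl17, Mrpl11 (7.78 FPKM), Mrpl1 (8.11), Mrpl35 (8.9) and Mrps25 (9.03). Both ends of this order hold large-subunit proteins with bacterial counterparts, so position in the order did not separate the subunits. The median level was 39.7 FPKM for the 30 large-subunit proteins with bacterial counterparts and 27.9 FPKM for the 19 that are specific to mitochondria. In the small subunit the medians were 40.9 FPKM for 16 proteins with bacterial counterparts and 40.5 FPKM for 10 mitochondria-specific ones. Mrps36 was left outside these 4 groups because its product is now described as a component of the alpha-ketoglutarate dehydrogenase complex, and Mrps30 and Mrps18a were placed in the large subunit, where their products sit despite the gene names. The 77 tested nuclear genes of the respiratory chain, a list chosen by symbol that also holds ATP synthase genes, had a median of 149 FPKM. The 79 cytosolic ribosomal proteins, also chosen by symbol, had one of 2431 FPKM.

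**Figure D1:**
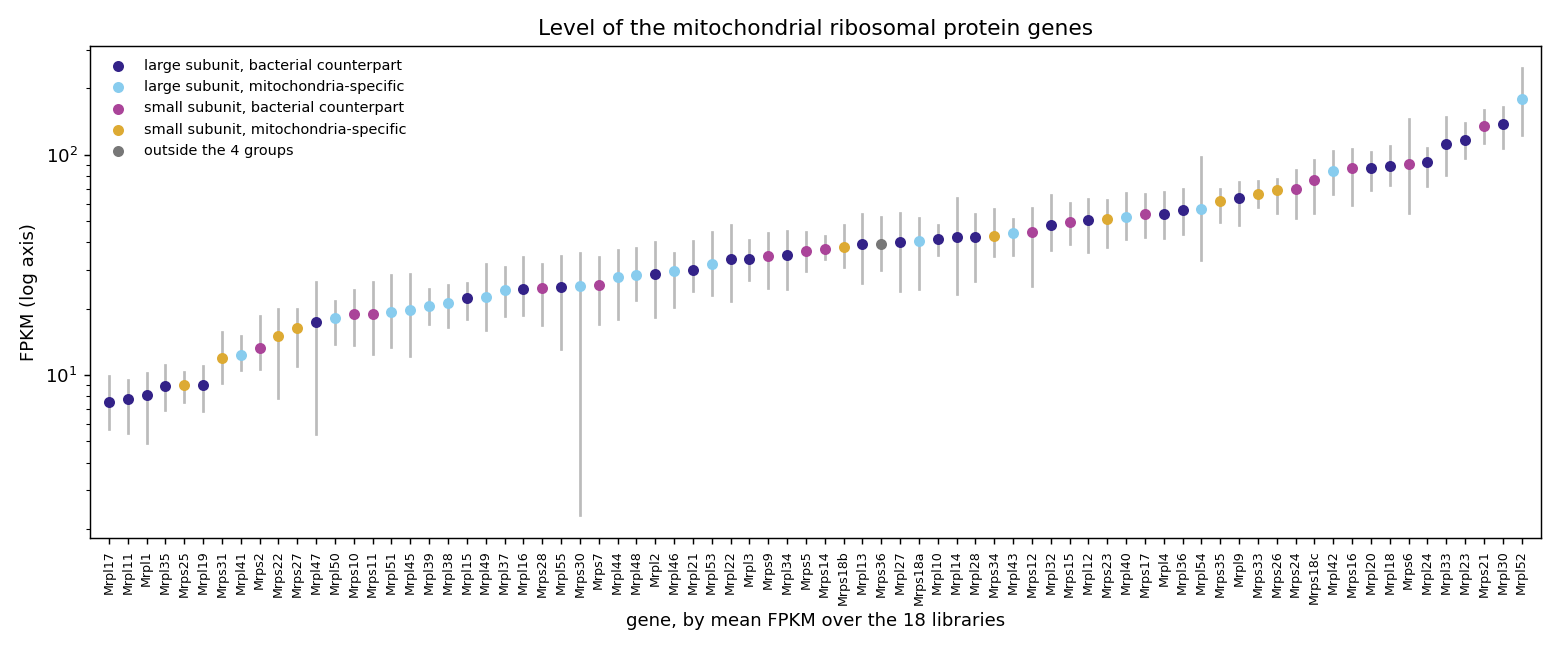
Mean FPKM of each of the 76 genes over the 18 libraries (points, log axis), ordered by level and coloured by subunit and evolutionary group, with the lowest and highest library as a grey line. Levels run from 7.57 FPKM for Mrpl17 to 180.1 FPKM for Mrpl52, and the long line at Mrps30 comes from low +/+ libraries.

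The order of these levels differed little between states. Spearman's rho between the resting and the effector mean FPKM was 0.984 over the 76 genes, given as a description because both means come from the same experiment and share the gene lengths. Every gene overlapped the next one up in its range over the 18 libraries, so no neighbours in this order were separated beyond their spread. Mrps30 ran from 2.31 to 35.9 FPKM over the libraries, and Mrpl47 from 5.39 to 26.4 FPKM.

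The start regions of these genes were searched for short motifs known from nuclear genes for mitochondria and from growth genes. RefSeq windows from 250 bases before to 50 after the start (GRCm38.p6) matched 67 of the 76 genes. The NRF1 core GCATGCGC, searched on both strands, was in 8 of 67 windows (11.9%), against 6.63% of the windows of all tested genes. The ETS (GABPA) core CCGGAAGT was in 12 windows (17.9% against 10.3%), and the YY1 core AAGATGGCG in 8 (11.9% against 4.06%). At least 1 of these 3 was in 26 windows (38.8% against 19.4%). The GC box GGGCGG was in 33 windows (49.3% against 69.3%), and the E-box CACGTG, the core bound by MYC, in 5 (7.46% against 12.3%). The 3 stretches below lie directly upstream of the annotated genes and are shown for a gene with the NRF1 core, a gene with the ETS core, and Mrps6, the gene that changed between states in every genotype, with motif letters in capitals and each on the plus strand of GRCm38. A match is a description of the letters and not a measured binding site.
Mrpl10, chr11:97041440-97041559, NRF1 core: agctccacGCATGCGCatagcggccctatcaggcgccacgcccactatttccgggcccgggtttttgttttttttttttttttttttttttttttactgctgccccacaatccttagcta
Mrps27, chr13:99344706-99344785, ETS core on the reverse strand: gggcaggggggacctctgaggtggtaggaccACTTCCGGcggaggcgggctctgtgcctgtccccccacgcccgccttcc
Mrps6, chr16:92058150-92058269, GC boxes, of which adjacent copies run together: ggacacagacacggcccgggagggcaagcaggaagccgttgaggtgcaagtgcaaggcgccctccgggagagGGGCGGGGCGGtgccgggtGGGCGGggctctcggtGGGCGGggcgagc

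Summed over all 76 genes, CPM was nearly flat across the 18 libraries, which is a share of the scaled library and not RNA per cell. The sum ran from 2835 CPM in the lowest to 3266 CPM in the highest library, a 1.15-fold span. It was 3022 ± 113 CPM in the resting libraries and 3089.6 ± 139.6 CPM in the effector libraries (SD, n = 9 each), and the ranges overlapped. By group the mean was 3049 CPM in +/+ resting and 3030.3 CPM in +/+ effector, 2954 and 3058 CPM in fl/+, and 3062 and 3181 CPM in fl/fl. Large-subunit and small-subunit genes kept their proportion, at a ratio of summed CPM between 1.74 and 1.88. Over the same libraries the cytosolic ribosomal proteins summed to 101709 to 160581 CPM, with a mean of 140309 CPM in resting and 116029 CPM in effector libraries. A list of 20 proliferation genes summed to 673 to 851 CPM in resting and 1103 to 2064 CPM in effector libraries, with no overlap.

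**Figure D2:**
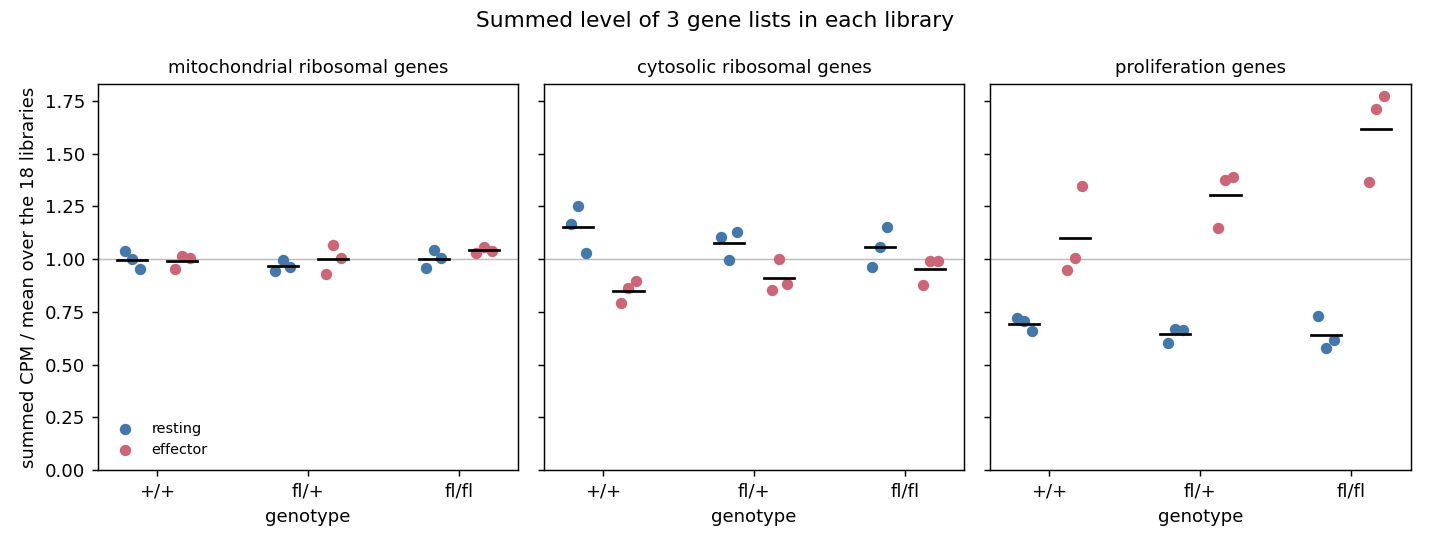
Summed CPM of the mitochondrial ribosomal, cytosolic ribosomal and proliferation genes in each library, divided by the mean over the 18 libraries, by genotype and state (points, 3 libraries per group; black line, group mean). The mitochondrial ribosomal sum stays close to 1 in every group, while the proliferation sum is higher in every effector library than in any resting library.

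The comparison of effector with resting cells asks which genes differ between the activated and the quiescent state in each genotype. In +/+ cells 3 of the 76 genes passed an adjusted p of 0.05 (edgeR's quasi-likelihood test, Benjamini-Hochberg over all tested genes), 2 higher and 1 lower in effector cells, where 16% of all tested genes passed. Mrps6 and Mrps30 were higher and Mrpl23 was lower. The median log2 change of the 76 genes was -0.02, against -0.01 for all tested genes, and 73 of the 76 changes were smaller than 0.5 in either direction. The 95% interval of the change lay within 1 log2 unit of 0 for 73 genes and within 0.5 for 45, so for most genes a change of 2-fold or more lay outside the interval. Without correction, 12 of the 76 (15.8%) had p under 0.05, against 28.7% of all tested genes.

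In fl/+ cells 2 of the 76 passed, Mrps6 higher and Mrpl47 lower, where 16.3% of all tested genes passed, and the median log2 change was 0.06. In fl/fl cells 1 passed, Mrps6, where 6.34% of all tested genes passed, and the median was 0.05. With the batch number as a block, which the labels support, Mrpl11 passed too in fl/fl cells (log2 change 0.52, SE 0.15, adjusted p = 0.0428). With genotype and number together Mrpl45 did instead (0.55, SE 0.16, adjusted p = 0.0323). Of all tested genes 836 and 1071 passed in fl/fl cells with these 2 blocks, against 674 without a block. The 4 structural groups lay close together: in +/+ cells their median log2 changes ran from -0.12 for the mitochondria-specific small-subunit proteins to 0.04 for the mitochondria-specific large-subunit proteins. None of the 10 mitochondria-specific small-subunit genes passed in any genotype with edgeR (2, 0 and 0 with unadjusted p under 0.05 in +/+, fl/+ and fl/fl), and none did with DESeq2 or with limma on log2(FPKM + 1). Of all tested genes 16%, 16.3% and 6.34% passed with edgeR in these genotypes. An unadjusted p under 0.05 was reached by 28.7%, 29.3% and 19.1% of them.

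**Figure D3:**
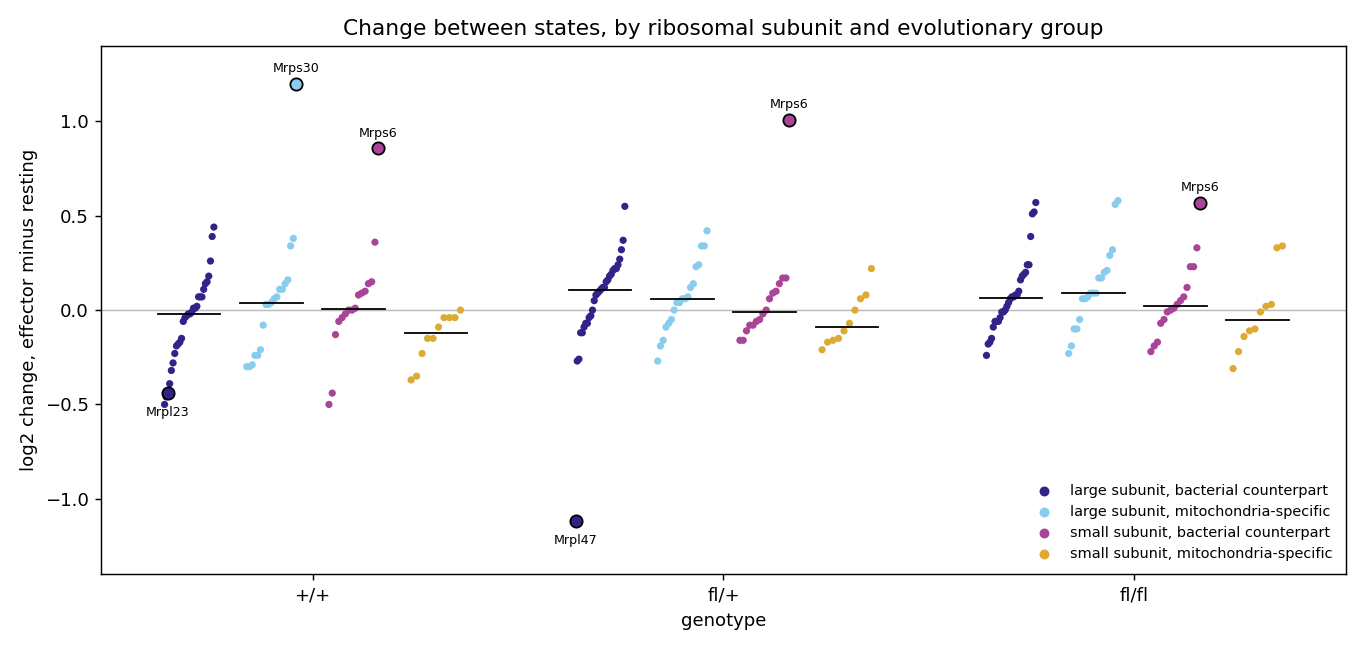
Log2 change from resting to effector cells for the genes of the 4 structural groups in each genotype (small points; black line, group median), with those past an adjusted p of 0.05 outlined and named. Mrpl47 is lowest at -1.12 in fl/+ and Mrps30 highest at 1.2 in +/+, and most other points lie within 0.5 of 0. Mrps36 is not plotted.

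Cytosolic ribosomal protein genes went another way. In +/+ cells 61 of 79 passed as lower in effector cells by edgeR and 0 as higher, with a median log2 change of -0.44. In fl/+ cells 17 of 79 passed as lower and 0 as higher (median -0.23), and in fl/fl cells 1 and 0 (median -0.15). The counts moved with the setting: 55, 8 and 0 passed in +/+, fl/+ and fl/fl by limma on log2(FPKM + 1), and 69, 32 and 6 by edgeR with the batch number as a block. Passing or not, 0 of the 79 changes were above 0 in +/+, 3 in fl/+ and 9 in fl/fl. The 77 respiratory chain genes had medians of -0.04, 0.07 and 0.06, near those of the mitochondrial ribosomal genes. No test of the difference between the lists was made.

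**Figure D4:**
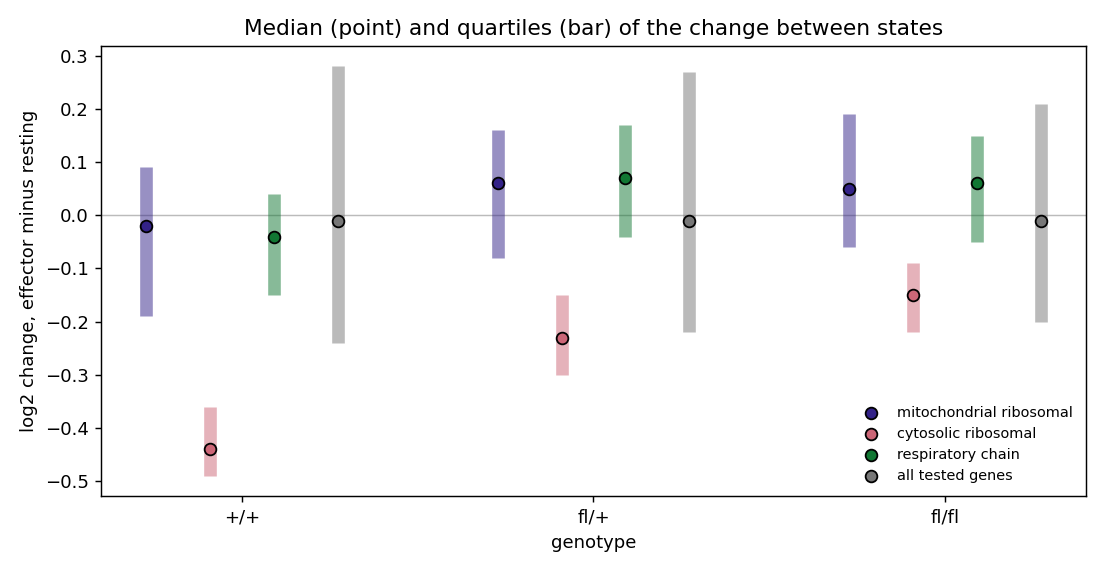
Median (point) and quartiles (bar) of the log2 change from resting to effector cells for the 76 mitochondrial ribosomal, 79 cytosolic ribosomal and 77 respiratory chain genes and all 10630 tested genes, in each genotype. The cytosolic ribosomal bars lie below 0 in all 3 genotypes, and the other bars span 0.

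Mrps6, which encodes the small-subunit protein bS6m, was higher in effector cells in all 3 genotypes. In +/+ cells it was at 38.7, 42.9 and 42.5 CPM in the resting libraries 1 to 3 and at 64.7, 90.7 and 71.1 CPM in the effector libraries. In fl/+ cells it was at 40.8, 52.6 and 43.1 CPM in resting and 88.7, 89.9 and 94.8 CPM in effector libraries. In fl/fl cells it was at 48.8, 49 and 39.5 CPM in resting and 76.9, 51.9 and 74.8 CPM in effector libraries. The states did not overlap within any genotype, effector was higher in 9 of 9 pairs of the same genotype and number, and the only overlap across genotypes was fl/fl effector 2 at 51.9 CPM, under fl/+ resting 2. The log2 change was 0.86 in +/+ (SE 0.16, adjusted p = 8.39e-04), 1.01 in fl/+ (SE 0.15, adjusted p = 1.54e-04) and 0.57 in fl/fl (SE 0.16, adjusted p = 0.0334). Averaged over genotypes it was 0.81 (SE 0.09, adjusted p = 9.22e-07), a 1.75-fold rise. The change in fl/fl differed from that in +/+ by -0.29 (SE 0.22, 95% interval -0.75 to 0.18, adjusted p = 0.77), and that in fl/+ by 0.15 (SE 0.22, adjusted p = 1).

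The fl/fl call for Mrps6 rested on few libraries. It was lost without fl/fl effector 1 (log2 change 0.46, adjusted p = 0.208), fl/fl effector 3 (0.51, adjusted p = 0.109), fl/fl resting 3 (0.48, adjusted p = 0.151) or fl/fl resting 2 (0.63, adjusted p = 0.0623), while the +/+ and fl/+ calls held with each of the 18 libraries left out. Mrps6 (chr16:92058270-92112227, plus strand) also encloses Slc5a3, a gene for a myo-inositol transporter (chr16:92058322-92087473, same strand), and the 2 annotations share 159 exonic bases, 10.4% of the exonic length of Mrps6. Of the deposited Mrps6 values 33.3% were not whole numbers, as happens when reads are divided between genes. Slc5a3 itself was higher in effector cells, by 0.59 on the log2 scale averaged over genotypes (SE 0.13, adjusted p = 0.00135). In +/+ cells it was at 99.5, 141 and 88.6 CPM in resting and at 186, 205 and 132 CPM in effector libraries, and these ranges overlapped. How far shared reads enter the Mrps6 values was not tested.

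**Figure D5:**
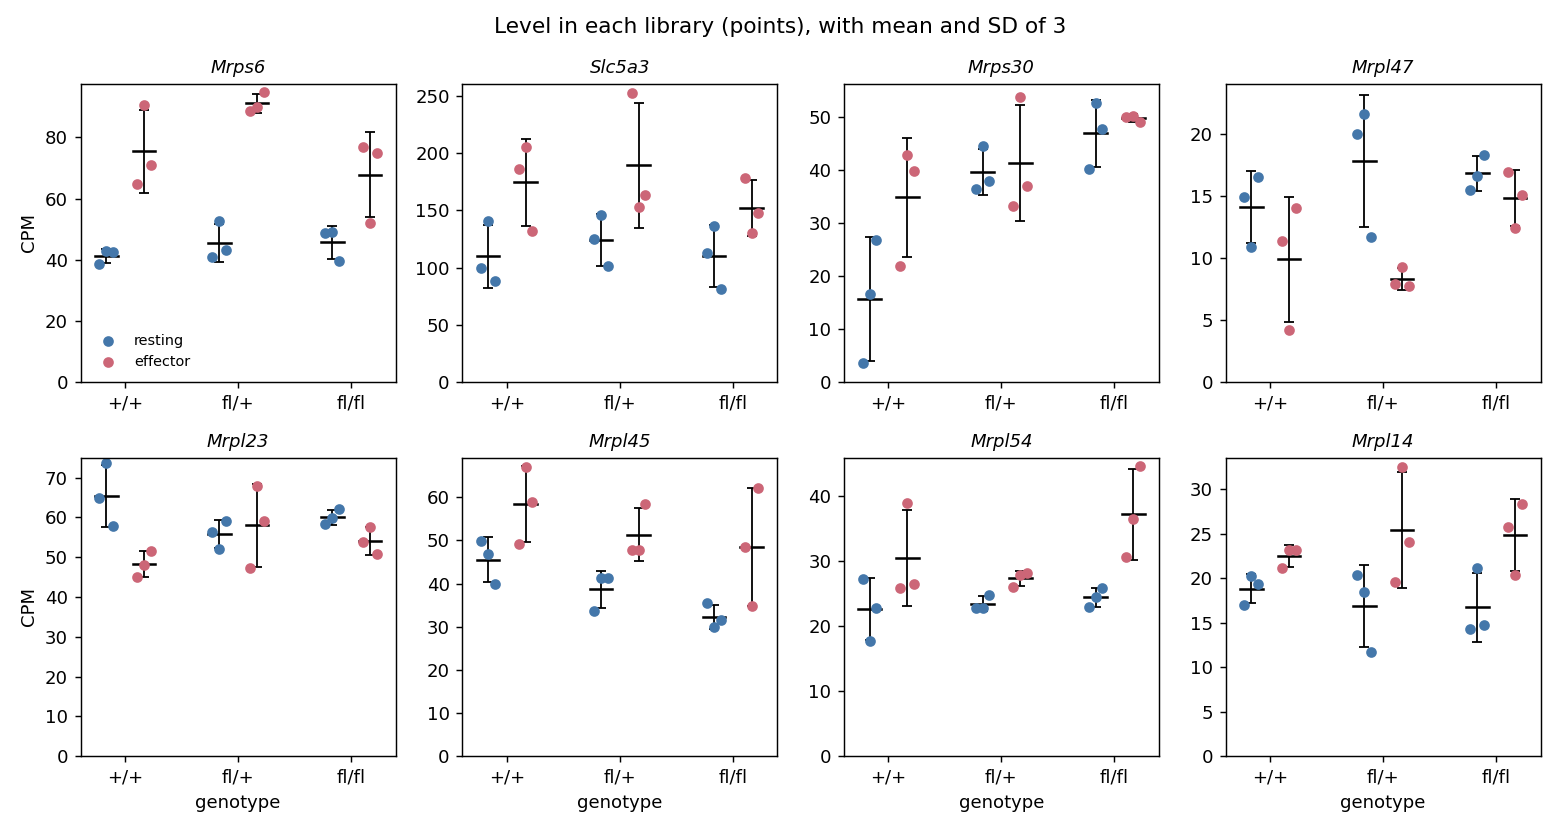
CPM in each library for 7 mitochondrial ribosomal genes and for Slc5a3, which overlaps Mrps6, by genotype and state (points; bars, mean and SD of 3). Effector points of Mrps6 lie above the resting points in every genotype, and Mrps30 is low in +/+ resting libraries, at 3.54 to 26.8 CPM.

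Mrps30, whose product is the large-subunit protein mL65, was lower in most +/+ libraries than in the other genotypes. In +/+ cells it was at 3.54, 16.6 and 26.8 CPM in resting libraries 1 to 3 and at 21.9, 42.7 and 39.8 CPM in effector libraries, so the states overlapped. In fl/+ cells it was at 36.3, 44.4 and 37.9 CPM in resting and 33.2, 53.7 and 36.9 CPM in effector libraries. In fl/fl cells it was at 40.2, 52.6 and 47.7 CPM in resting and 50, 50.2 and 48.9 CPM in effector libraries. The low values were thus those of the +/+ resting group and +/+ effector 1. In +/+ cells the log2 change between states was 1.2 (SE 0.39, adjusted p = 0.0433). Without +/+ resting 1, which held only 14 expected counts of the gene, it was 0.65 (adjusted p = 0.149), and the call was also lost without +/+ resting 2, +/+ effector 2 or 3, fl/+ resting 1 or 3, or fl/fl effector 3 (adjusted p from 0.0516), and with DESeq2 (adjusted p = 0.0685).

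Mrps30 also passed between genotypes. In resting cells it was higher in fl/fl than in +/+ by 1.67 on the log2 scale (SE 0.38, adjusted p = 0.0461), a 3.18-fold difference with no overlap between the groups, where 0.696% of all tested genes passed. Without +/+ resting 1 the difference was 1.10 (adjusted p = 0.163), and 6 of all tested genes passed, against 74 with all libraries. The call was lost when any of 13 of the 18 libraries was left out (adjusted p from 0.0506 to 0.163) and with limma on log2(FPKM + 1) (adjusted p = 0.0588). It held only without +/+ effector 1 or 3, +/+ resting 3, fl/+ effector 2 or fl/fl effector 1, and reached 2.36 (adjusted p = 0.00353) without +/+ resting 3. The fl/+ minus +/+ difference in resting cells was 1.42 (SE 0.39, adjusted p = 0.262). With the batch number as a block, where 90 of all tested genes passed against 9 without it, Mrps30 differed by 1.49 and passed (SE 0.33, adjusted p = 0.0337). Its state change in fl/fl differed from that in +/+ by -1.11 (SE 0.52, adjusted p = 0.544), and that in fl/+ by -1.14 (SE 0.52, adjusted p = 1). Without the filter on low counts these became -1.10 (SE 0.27, adjusted p = 0.00614) and -1.13 (SE 0.27, adjusted p = 0.0255). In that setting 246 and 31 of 19512 genes passed, against 0 and 2 of 10630 with the filter.

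Mrpl47 and Mrpl23 encode large-subunit proteins, uL29m and uL23m, that lie at the exit of the peptide tunnel. Mrpl47 was at 20, 21.6 and 11.7 CPM in fl/+ resting and at 7.93, 9.3 and 7.72 CPM in fl/+ effector libraries, with no overlap. The log2 change was -1.12 (SE 0.29, adjusted p = 0.011), and it was -1.02 without fl/+ resting 1 (adjusted p = 0.063) and -0.97 without fl/+ resting 2 (adjusted p = 0.0579), and did not pass with limma on log2(FPKM + 1) either (-0.91, adjusted p = 0.0584). In +/+ cells Mrpl47 was at 14.9, 10.9 and 16.5 CPM in resting and 11.4, 4.22 and 14 CPM in effector libraries, and in fl/fl cells at 15.5, 16.6 and 18.3 against 16.9, 12.4 and 15.1 CPM. Both of these pairs of groups overlapped, and the change in fl/+ differed from that in +/+ by -0.66 (SE 0.42, adjusted p = 1). Mrpl47 overlaps Actl6a and Ndufb5 in the annotation and 55.6% of its deposited values were not whole, so its reads may be divided with other genes.

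Mrpl23 was at 64.8, 73.6 and 57.9 CPM in +/+ resting and at 45.1, 48 and 51.6 CPM in +/+ effector libraries, with no overlap. The log2 change was -0.44 (SE 0.13, adjusted p = 0.0271). It no longer passed without +/+ resting 1 (adjusted p = 0.0719), +/+ effector 1 (0.121), +/+ resting 2 (0.14) or +/+ effector 2 (0.0725), nor with no filter on low counts (0.0514). In fl/+ cells the change was 0.05 (SE 0.13, adjusted p = 0.847) and in fl/fl cells -0.15 (SE 0.13, adjusted p = 0.6). The difference of the fl/+ change from the +/+ change was 0.49 (SE 0.19, adjusted p = 1).

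The average over the 3 genotypes uses all 9 effector and 9 resting libraries and has the smallest error. There 7 of the 76 genes passed, 5 higher and 2 lower, where 32.9% of all tested genes passed. The median log2 change was 0.02, 68 of the 76 intervals lay within 0.5 of 0, and 16 of the 76 (21.1%) had an unadjusted p under 0.05, against 42.3% of all tested genes. With limma on log2(FPKM + 1), 17 were higher and 1 lower. On that scale the median of all tested genes was 0.07, and 2547 genes passed as higher and 878 as lower, against 1861 and 1636 by edgeR on counts. With the batch number as a block 10 passed, adding Mrpl11 (0.24, SE 0.09, adjusted p = 0.0361), Mrpl30 (-0.19, SE 0.07, adjusted p = 0.0331) and Mrps30 (0.46, SE 0.17, adjusted p = 0.0411). Of all tested genes 3752 passed with the block, against 3497 without it.

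Beside Mrps6, the genes that rose on average were Mrpl45, Mrpl54, Mrpl14 and Mrpl27, all of the large subunit. Mrpl45 encodes mL45, which contacts the inner membrane near the tunnel exit. It rose by 0.44 (SE 0.10, adjusted p = 0.00214), with the effector library higher in 8 of 9 pairs. In fl/fl cells it was at 35.4, 29.9 and 31.5 CPM in resting and at 48.5, 34.8 and 62.1 CPM in effector libraries, and the ranges overlapped because effector 2 was under resting 1. Of its deposited values 94.4% were not whole. Mrpl54 (mL54) rose by 0.39 (SE 0.11, adjusted p = 0.00668, 8 of 9 pairs). In fl/fl cells it was at 22.9, 24.5 and 25.9 CPM in resting and 30.6, 36.5 and 44.6 CPM in effector libraries, without overlap, and the fl/fl comparison alone gave 0.58 by edgeR (SE 0.18, adjusted p = 0.0667) and 0.70 by limma on log2(FPKM + 1) (SE 0.16, adjusted p = 0.0145).

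Mrpl14 (uL14m, which binds the anti-association factor MALSU1) rose by 0.46 (SE 0.13, adjusted p = 0.00996, 7 of 9 pairs). It was at 17, 20.2 and 19.3 CPM in +/+ resting and 21.1, 23.2 and 23.2 CPM in +/+ effector libraries, without overlap, and the state ranges overlapped in fl/+ and fl/fl. It overlaps Tmem63b in the annotation. Mrpl27 (bL27m) rose by 0.33 (SE 0.11, adjusted p = 0.0313, 8 of 9 pairs), and the call was lost without +/+ resting 2 or 3, +/+ effector 2, fl/+ resting 1 or 3, fl/fl resting 2, or fl/fl effector 1 or 2 (adjusted p from 0.0513 to 0.0669). All of its deposited values were non-whole and it overlaps Eme1.

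Mrpl47 and Mrpl49 fell on average. Mrpl47 fell by 0.58 (SE 0.17, adjusted p = 0.0115), with effector higher in 1 of 9 pairs, and this call held with each library left out. Mrpl49 (mL49) fell by 0.27 (SE 0.10, adjusted p = 0.0455), with effector higher in 2 of 9 pairs. Its call was lost in 14 of the 18 fits without 1 library (adjusted p from 0.0521 to 0.142), all but those without +/+ effector 1, +/+ resting 2, fl/+ resting 2 or fl/fl resting 3. It was also lost with RLE size factors (adjusted p = 0.058), with DESeq2 (0.0733) and without the filter on low counts (0.0553). With limma on log2(FPKM + 1) the change was -0.15 and did not pass (adjusted p = 0.315). The lowest average changes after these were those of Mrps10 (-0.24, SE 0.14, adjusted p = 0.194), Mrpl22 (-0.21, SE 0.10, adjusted p = 0.139) and Mrps18b (-0.19, SE 0.09, adjusted p = 0.0961), which did not pass.

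The genotype comparisons ask what the loxP-flanked allele changes within a state, and the 3 comparisons of a state share their libraries. The 5 effector markers summed to 614 to 957 CPM in +/+, 499 to 606 CPM in fl/+ and 206 to 579 CPM in fl/fl effector libraries, where fl/fl effector 1 stood apart at 579 CPM. Between +/+ and fl/fl effector libraries there was also no overlap in the summed resting markers (971 to 1790.3 against 1847 to 2961 CPM), proliferation genes (1103 to 1569 against 1593 to 2064 CPM) or CD8 markers (14.7 to 17.1 against 18.1 to 18.8 CPM). The T cell and Treg markers (3465 to 3997 against 2478 to 3164 CPM) and the B cell markers (16.9 to 26.2 against 11.7 to 16.2 CPM) did not overlap either. The part of these in the comparisons was not tested. In effector cells fl/fl minus +/+ gave 0 of 76 by edgeR (5 with unadjusted p under 0.05, 0 by DESeq2, 3 by limma on log2(FPKM + 1)), where 2.8% of all tested genes passed. The 5 genes were 6.58% of the 76, against 17.2% of all tested genes with an unadjusted p under 0.05. The median log2 difference was 0.09, with 56 of the 76 above 0, against a median of 0.01 and 5428 of 10630 above 0 for all tested genes. It stayed between 0.07 and 0.10 with each library left out. The median deviation of the 76 genes in a library had an SD of 0.07 log2 units over the 18 libraries. Cytosolic ribosomal genes had a median difference of 0.16 (69 of 79 above 0), and respiratory chain genes one of 0.08 (53 of 77). With the batch number as a block Mrpl52 passed, lower in fl/fl by 0.49 (a log2 difference of -0.49, SE 0.13, adjusted p = 0.0405), against -0.48 without it (SE 0.14, adjusted p = 0.071). Of all tested genes 551 passed with the block, against 298 without it.

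Mrpl52 encodes mL52 and has the highest level of the 76. In effector cells it was at 65.5, 61.7 and 67.1 CPM in +/+, 60.3, 77.8 and 73.1 CPM in fl/+ and 47.5, 45.2 and 46.4 CPM in fl/fl libraries. The fl/fl effector libraries were below all the others of that state. In resting cells it was at 60, 63.5 and 50.4 CPM in +/+, 52.4, 59.7 and 54.8 CPM in fl/+ and 37.8, 56.2 and 40.6 CPM in fl/fl libraries, which overlapped. The fl/fl minus fl/+ difference in effector cells was -0.60 (SE 0.14, adjusted p = 0.0566 by edgeR, 0.0183 by DESeq2, and 0.0275 by edgeR with the batch number as a block). That comparison gave 0 of 76 by edgeR (9 with unadjusted p under 0.05, 1 by DESeq2 and 1 by limma), where 0.677% of all tested genes passed. The 9 genes were 11.8% of the 76, and 11.8% of all tested genes also had an unadjusted p under 0.05. As counts, 72 of all tested genes passed by edgeR, 181 by DESeq2, 33 by limma and 181 by edgeR with the block.

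The other genotype comparisons gave 0 of 76 by edgeR, by DESeq2 and by limma on log2(FPKM + 1), with the filter and no block. Under other edgeR settings Mrps30 passed for fl/+ minus +/+ in resting cells. Its adjusted p was 0.0337 with the batch number as a block (90 of all tested genes passed). Without the filter it was 6.41e-10 (219 of 19512 genes passed). With the filter and no block, 0.0847% of all tested genes passed by edgeR for fl/+ minus +/+ in resting cells. The share was 0.00941% for the same difference in effector cells and 0.0282% for fl/fl minus fl/+ in resting cells. An unadjusted p under 0.05 was reached by 2 of the 76 (2.63%) in the first of these, against 6.29% of all tested genes. It was reached by 2 (2.63%) in the next, against 5.47%, and by 3 (3.95%) in the last, against 4.83%. The tests of whether the state change differs by genotype gave 0 of 76 by the same 3 tools with the filter. Without it edgeR called Mrps30 in both. With the filter 0% of all tested genes passed by edgeR for fl/fl against +/+ and 0.0188% for fl/+ against +/+. An unadjusted p under 0.05 was reached by 5 of the 76 (6.58%) for fl/fl, against 8.97% of all tested genes, and by 6 (7.89%) for fl/+, against 3.24%. Intervals were wider there: for fl/fl against +/+, 17 of the 76 lay within 0.5 of 0 and 68 within 1.

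Other nuclear genes for mitochondrial translation were described from lists of the same pathway. None of 7 mitochondrial ribosomal proteins with other symbols passed between states in any genotype or on average by edgeR, DESeq2 or limma on log2(FPKM + 1), with 1 gene at unadjusted p under 0.05 in +/+ and 0 in fl/+, in fl/fl and on average. Of all tested genes 16%, 16.3% and 6.34% passed by edgeR in +/+, fl/+ and fl/fl, and 32.9% on average. An unadjusted p under 0.05 was reached by 28.7%, 29.3% and 19.1% of them, and by 42.3% on average. Of 26 genes for ribosome assembly and rRNA modification, 1 passed as higher and 5 as lower on average over genotypes by edgeR (23.1%, against 32.9% of all tested genes). By limma on log2(FPKM + 1) 3 of the 26 passed, where 3425 of all 10630 tested genes passed. Noa1, a GTPase for assembly of the small subunit, changed by -0.74 in +/+ cells (SE 0.17, adjusted p = 0.00448), -0.07 in fl/+ (adjusted p = 0.825) and -0.09 in fl/fl (adjusted p = 0.833). By edgeR 0 of the 26 genes passed the tests of whether the state change differs by genotype. Of all tested genes 0% passed these for fl/fl and 0.0188% for fl/+, each against +/+. In effector cells Noa1 was higher in fl/fl than in +/+ by 0.68 (SE 0.17, adjusted p = 0.035). The call was lost without +/+ effector 1, 2 or 3 (differences 0.77, 0.67 and 0.62, adjusted p = 0.105, 0.129 and 0.0662). It was also lost without fl/fl effector 2 or 3 (0.45 and 0.74, adjusted p = 0.259 and 0.0556). Without +/+ effector 1, 32 of all tested genes passed this comparison, against 298 with all libraries. Rbfa, a small-subunit assembly factor, changed by -0.36 on average (SE 0.10, adjusted p = 0.00869), and Ddx28, a helicase for large-subunit assembly, by 0.52 on average (SE 0.15, adjusted p = 0.0123).

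Of 20 mitochondrial aminoacyl-tRNA synthetases, which charge the organelle's tRNAs, 4 passed as lower and 0 as higher on average over genotypes (20%, against 32.9% of all tested genes). Mars2, for methionine, changed by -0.95 in +/+ (SE 0.15, adjusted p = 1.92e-04), -0.83 in fl/+ (SE 0.14, adjusted p = 4.34e-04), -0.43 in fl/fl (adjusted p = 0.0856) and -0.74 on average (SE 0.08, adjusted p = 1.19e-06), with effector lower in 9 of 9 pairs. Nars2, for asparagine, changed by -0.63 on average (SE 0.09, adjusted p = 2.53e-05), also lower in 9 of 9 pairs. Of 15 translation factors Tufm, the elongation factor that delivers tRNAs, was the only one to pass on average by edgeR and by DESeq2. By edgeR this was 6.67%, against 32.9% of all tested genes. With limma on log2(FPKM + 1) 7 of the 15 passed, where 3425 of all 10630 tested genes passed, 2547 as higher and 878 as lower. Tufm changed by 0.20 by edgeR (SE 0.06, adjusted p = 0.0231), with effector higher in 9 of 9 pairs. It no longer passed without fl/+ resting 1 (0.17, adjusted p = 0.0578). Of 8 tested regulators of mitochondrial biogenesis 3 passed as lower and 0 as higher on average, which is 37.5% and near the 32.9% of all tested genes. These were Myc (-0.49, SE 0.10, adjusted p = 5.87e-04, with -0.77 in +/+, -0.64 in fl/+ and -0.08 in fl/fl, the last at adjusted p = 0.852), Pprc1 (-0.39, SE 0.09, adjusted p = 0.00156) and Nrf1 (-0.29, SE 0.08, adjusted p = 0.00641). Of 10 genes for mitochondrial DNA maintenance and transcription 1 passed as higher and 2 as lower (30%), among them Polg2, an accessory subunit of the mitochondrial DNA polymerase (-0.61, SE 0.12, adjusted p = 3.47e-04). For a state change that differs by genotype, 0 of the 20 synthetases and 0 of the 8 regulators passed by edgeR. Of all tested genes 0% passed there for fl/fl and 0.0188% for fl/+, each against +/+.

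The genes lie on 17 chromosomes in the GENCODE M21 annotation, and many share a start region with a neighbour. A gene on the other strand starts within 1000 bases of 32 of the 76 (42.1%), against 18% of all tested protein-coding genes, 41.3% of the respiratory chain genes and 20.3% of the cytosolic ribosomal protein genes. Mrpl46 and Mrps11 lie on opposite strands and overlap at their starts, which are 412 bases apart. The start of Mrpl36 is 29 bases from that of Ndufs6, a complex I subunit, and the start of Mrpl49 is 59 bases from that of Fau, which encodes a cytosolic ribosomal protein. Another gene of the table overlaps 26 of the 76 genes. Non-whole values made up more than 50% of the deposited values of 15 genes, and every value of 7: Mrpl9, Mrpl19, Mrpl24, Mrpl27, Mrpl35, Mrpl51 and Mrps25. Values of these genes rest in part on how reads were divided between genes.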

How the data were processed

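RNA from sorted Treg was sequenced in 18 libraries. Build mm10 and the tools STAR 2.6.0, RSEM 1.2.8 and bcl2fastq 2.17.1.14 are those listed in the submitters' processing notes. The sources used here give no annotation, strand setting or filter. The deposited expected counts, which the authors made per gene and which need not be whole because reads are divided between genes, were rounded. Of the nonzero values of all genes 29.4% were not whole (tolerance 0.005), and Rn45s, which encodes ribosomal RNA, made up 10.9 to 16.4% of a library. The deposited FPKM values, scaled by the authors to transcript length and library size, served for levels and for an alternative.

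Counts were tested in edgeR 4.0.16 (R 4.3.3) by the quasi-likelihood F test, with TMM scaling, filterByExpr by group, 6 group means fitted over all 18 libraries, 12 contrasts and Benjamini-Hochberg adjustment over the 10630 tested genes, called at an adjusted p under 0.05. Scripts were first tested on simulated data. The SE of a log2 change is its size over the root of F, and intervals are at 95%. CPM uses the TMM-scaled library size. Within groups the correlation of log2 CPM between libraries was 0.953 to 0.976, and the common dispersion was 0.0215.

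Alternatives were RLE size factors, DESeq2 1.42.0, no filter, limma 3.58.1 on log2(FPKM + 1) or log2(FPKM + 0.1), Rn45s left out, each library left out, and replicate blocks. The labels call the replicate number a batch, so numbers pair the samples: deviations from the group means of the same number and genotype correlated at 0.2073 on average over 9 pairs (0.1411 to 0.3450), and those of the same number in other genotypes at 0.0666 over 36 pairs.

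Named genes were the called members, the extremes of the average state change and of level, members with mostly non-whole values, and called genes of the pathway lists. The members and lists were chosen with earlier results of these data known. Gene positions come from GENCODE M21 and start sequences from RefSeq, both on GRCm38. The gene targeted by the floxed allele is not reported here.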

Additional observations from a re-analysis of the deposited data

How the results depend on the processing

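No value named with the results changed direction while called. Under settings other than leaving out a library, the values followed for named genes kept their side of the threshold in 359 fits, lost a call in 37 and gained one in 3. With 1 library left out they kept it in 782 fits, lost a call in 116 and gained one in 2. Genes not named for a contrast are counted only in the numbers that follow. With limma on log2(FPKM + 1) the numbers of the 76 genes called were 5 in +/+, 3 in fl/+, 7 in fl/fl and 18 on average. Of all 10630 tested genes, 1789, 1634, 716 and 3425 were called there. For fl/fl minus +/+ this setting called 0 in resting and 3 in effector cells (53 and 395 of all tested genes). For fl/fl minus fl/+ in effector cells it called 1 (33 of all tested genes). With log2(FPKM + 0.1) the numbers were 5 in +/+, 3 in fl/+, 7 in fl/fl and 18 on average (1736, 1560, 698 and 3360 of all tested genes). For fl/fl minus +/+ they were 0 in resting and 2 in effector cells (53 and 183 of all tested genes). Without a filter 2 were called in fl/fl, where 1012 of 19512 genes were called. That setting called 1 for fl/fl minus +/+ in effector cells (830 of all genes) and 1 for fl/+ minus +/+ in resting cells (219). It also called 1 for fl/fl minus fl/+ in effector cells (488). Both tests of whether the state change differs by genotype called 1 each (246 of all genes for fl/fl and 31 for fl/+). DESeq2 called 1 for fl/fl minus fl/+ in effector cells (181 of all tested genes). With the replicate block by number 2 were called in fl/fl (836 of all tested genes) and 1 for fl/fl minus +/+ in effector cells (551). That block also called 1 for fl/+ minus +/+ in resting cells (90) and 1 for fl/fl minus fl/+ in effector cells (181). With the block by genotype and number 2 were called in fl/fl (1071 of all tested genes). Beyond these counts and the calls named with the results, the block ended no call among the 76 genes. With each library left out in turn the count ran from 1 to 4 in +/+ (1 without +/+ resting 1, +/+ resting 2 or +/+ effector 2), 1 to 3 in fl/+ (1 without fl/+ resting 1 or 2) and 0 to 2 in fl/fl (0 without fl/fl effector 1 or 3 or fl/fl resting 2 or 3, and 2 without fl/fl effector 2, +/+ effector 2 or +/+ effector 3). It ran from 5 to 9 on average. For genotypes it ran from 0 to 1 for fl/fl minus +/+ in resting cells (0 without the 13 libraries that ended the Mrps30 call), 0 to 1 for fl/fl minus +/+ in effector cells (1 without fl/fl resting 2), 0 to 1 for fl/+ minus +/+ in resting cells (1 without +/+ resting 3) and 0 to 1 for fl/fl minus fl/+ in effector cells (1 without +/+ resting 3 or fl/fl resting 1 or 2). It was 0 in every such fit for the other genotype comparisons and for the differences between state changes. The number of all tested genes called moved in these fits as well. Without +/+ resting 1 it was 1285 in +/+, against 1700 with all libraries. For fl/fl minus +/+ in resting cells it was 6 in that fit, against 74. Without +/+ effector 1 it was 1212 in +/+. For fl/fl minus +/+ that fit called 79 in resting cells and 32 in effector cells, the latter against 298 with all libraries. The causes of these shifts were not tested. Medians of the 76 log2 changes moved on the FPKM scale, to 0.09 in +/+, 0.13 in fl/+ and 0.14 in fl/fl with log2(FPKM + 1), where all tested genes had medians of 0.08, 0.08 and 0.07, and the fl/+ median was -0.02 without fl/+ effector 2. Depth limits the genes with few counts, of which Mrpl47 had as few as 8 expected counts in a library.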
